A study of Mus musculus with 8 samples.

Results

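The 10 genes described here encode the insulin receptor substrates IRS1 and IRS2, the receptor-binding adaptors GRB10 and GRB14, the phosphoinositide 3-kinase (PI3K) subunits p85alpha (Pik3r1) and p110alpha (Pik3ca), the kinases PDK1 (Pdpk1), AKT1 and AKT2, and PID1, a protein with a phosphotyrosine interaction domain. They were taken by gene symbol: a probe set, the group of probes that together read a transcript on an Affymetrix array, was kept where the platform annotation lists this 1 symbol for it. That gave 29 of 45037 probe sets and 10 of 18193 genes. Pid1 was chosen because its signal was higher after knockdown, so its values are a description and carry no test. The other 9 genes, with 26 probe sets, were chosen for their place in the pathway.

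C2C12, the line used, is an established line of mouse myoblasts, and 8 cultures of it were measured. A lentivirus delivered siRNA to DOR, which Trp53inp2 encodes, in 4 cultures and scrambled RNA in the other 4, so every culture was transduced, at an moi of 100. Cells were amplified for 5 to 7 days, sorted as GFP-positive (93 to 99%) and then kept in 5% horse serum for 4 days, according to the labels' protocols, while another label calls them confluent myoblasts. The labels do not say how the cultures of a group were derived from the line, so p-values measure only the spread between these cultures, and the labels distinguish no second siRNA against DOR.

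Insulin and IGF receptors phosphorylate IRS proteins on tyrosine. The regulatory subunit of PI3K binds these tyrosines and brings the catalytic subunit to the membrane, where its lipid product recruits PDK1 and AKT. AKT then phosphorylates regulators of glucose uptake, glycogen synthesis and FoxO factors, and in muscle it supports both glucose uptake and fibre growth. GRB10 and GRB14 bind activated receptors and restrain them, and PID1 is known to blunt insulin-stimulated IRS1 and AKT phosphorylation in cultured fat and muscle cells. These steps are changes of protein state, which expression arrays do not read.

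The 250 bases before the annotated start are shown for Pid1, the gene of the set with the largest difference, and for Pik3r1, whose probe sets were all higher after knockdown. They are from RefSeq (GRCm38.p6), and all lie on the minus strand. The Pid1 window is chr1:84284646-84284895, and the Pik3r1 windows, before 2 separate starts, are chr13:101768218-101768467 and chr13:101692631-101692880. Capitals mark CANNTG, the E-box that myogenic factors such as MyoD can bind.
Pid1: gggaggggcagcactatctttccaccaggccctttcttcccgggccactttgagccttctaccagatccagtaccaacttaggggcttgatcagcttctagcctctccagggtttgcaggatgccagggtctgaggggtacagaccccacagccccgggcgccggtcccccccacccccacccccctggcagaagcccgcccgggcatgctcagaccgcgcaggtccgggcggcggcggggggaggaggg
Pik3r1, first start: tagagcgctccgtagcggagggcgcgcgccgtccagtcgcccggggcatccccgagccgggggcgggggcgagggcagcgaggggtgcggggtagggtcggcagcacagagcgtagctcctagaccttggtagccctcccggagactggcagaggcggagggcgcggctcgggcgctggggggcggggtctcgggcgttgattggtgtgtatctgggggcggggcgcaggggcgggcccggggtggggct
Pik3r1, second start: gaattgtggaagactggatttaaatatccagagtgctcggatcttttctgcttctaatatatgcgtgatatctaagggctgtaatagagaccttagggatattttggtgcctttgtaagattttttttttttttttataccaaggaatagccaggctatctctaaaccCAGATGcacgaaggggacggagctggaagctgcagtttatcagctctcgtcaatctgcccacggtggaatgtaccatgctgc
CANNTG occurred once in the second Pik3r1 window and in neither of the others. Over all 32851 RefSeq windows of this length 66.2% held it on either strand, and a motif of this kind reads the same on both. AGGTCA, the half-site of nuclear receptors such as the thyroid hormone receptor, occurred in 14.0% of all windows, and GTAAACA, a core of FoxO sites, in 3.17%. Neither was found on either strand of the 3 windows printed. Over the 17 windows of the 10 genes, 10 held CANNTG, 2 held AGGTCA and 1 held GTAAACA.

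Values are log2 expression made by the authors with RMA, so a difference of 1 is a doubling, and the median of all values is 6.18. Array medians lay between 6.14 and 6.20. The brighter probe set of Trp53inp2 changed by -1.83 ± 0.17 log2 units after knockdown (limma adjusted p = 0.00087), with no overlap between groups, and the dimmer one read 8.01 and 8.15. Muscle markers were bright in every culture: the mean of 7 muscle identity genes lay between 12.14 and 12.38 in scrambled arrays and between 12.16 and 12.28 in DOR siRNA arrays. The mean of 8 genes of differentiated muscle lay between 12.52 and 12.98 in scrambled arrays and between 11.55 and 12.18 in DOR siRNA arrays. All 8 were lower after knockdown, from -0.15 (Mylpf) to -1.89 (Myh8), and 5 of them passed limma at an adjusted p under 0.05. All 5 fibroblast markers were higher, from 0.04 (Col1a1) to 0.57 (Pdgfra), and 1 of them, Pdgfra, passed. Of all genes by the brightest probe set, 1.45% passed as lower and 3.11% as higher. The mean of the fibroblast markers lay between 8.83 and 9.07 in scrambled arrays and between 9.18 and 9.55 in DOR siRNA arrays. Adipocyte markers averaged 4.45 to 4.63 and 4.46 to 4.72, with Adipoq at 3.18 and 3.24, endothelial markers 5.00 to 5.22 and 4.96 to 5.16, and macrophage markers 5.22 to 5.28 and 5.09 to 5.26. In bulk RNA, fewer cells of a type and less RNA per cell cannot be told apart. Whether the lower differentiation markers have a part in the results below was not tested.

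None of the 26 probe sets of the other 9 genes passed the limma test after Benjamini-Hochberg adjustment over all probe sets, where 3.22% of all probe sets passed. At an unadjusted p under 0.05 there were 5, which were 4 higher and 1 lower (19.2%, against 15.3% of all probe sets, of which 8.46% were higher and 6.88% lower). The groups did not overlap for 3 of the 26 (11.5%, against 9.85% of all). The median difference was 0.04, with 15 probe sets higher and 11 lower, and the median size was 0.10 against 0.09 over all probe sets. By the brightest probe set of each gene, 3 of the 9 had an unadjusted p under 0.05 (33.3%, against 18.0% of all genes), and the groups did not overlap for 2 (22.2%, against 12.2% of all genes). With the replicate number as a block, 2 of the 26 passed, 1 of Pik3r1 and 1 of Grb10, where 6.28% of all probe sets did.

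**Figure D1:**
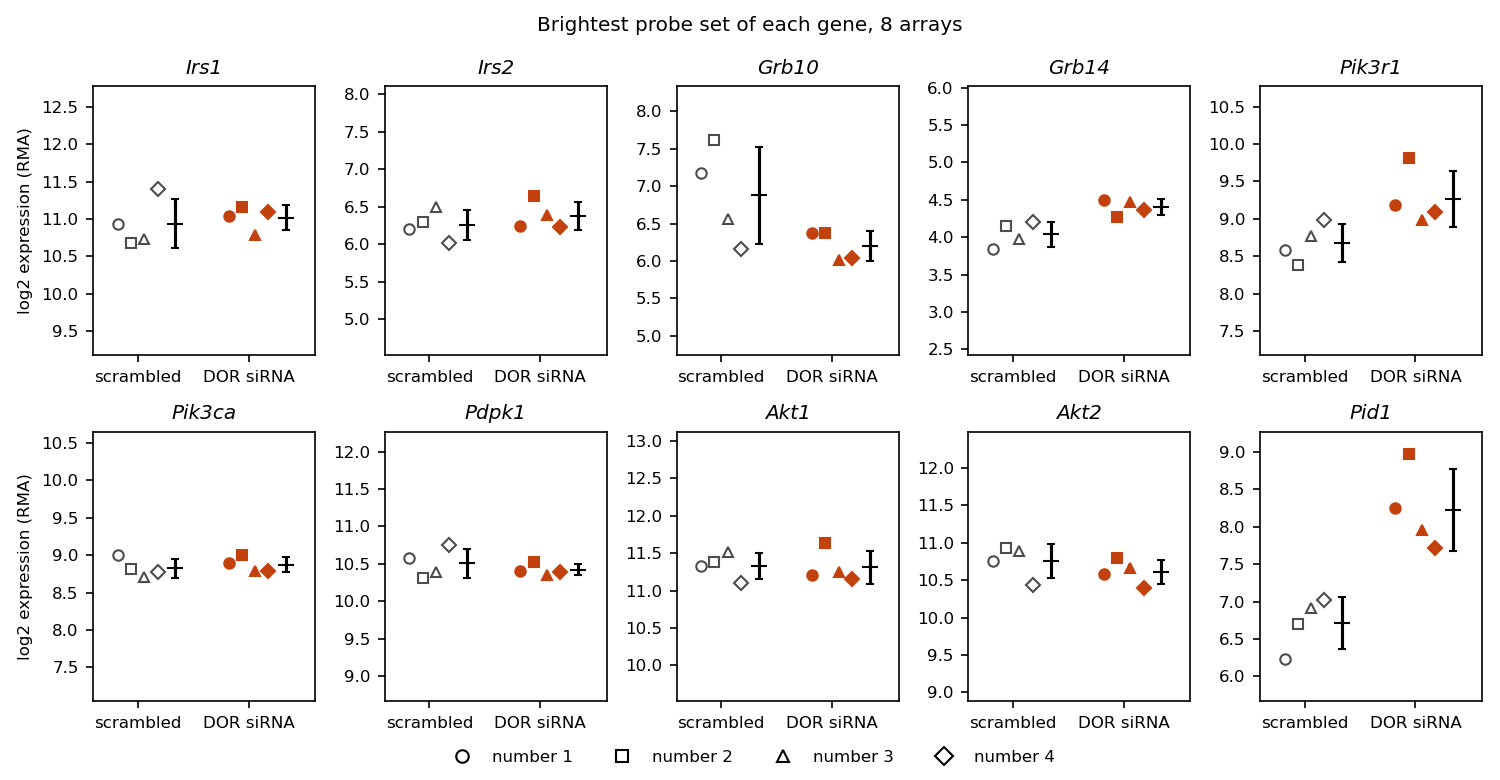
Log2 expression of the brightest probe set of each of the 10 genes in the 4 scrambled (open) and 4 DOR siRNA (filled) arrays, with a marker shape for each replicate number and the mean ± SD beside the points; all panels span the same range. The groups stand fully apart for Pid1 (6.23 to 7.02 against 7.71 to 8.98), narrowly for Grb14 and barely for Pik3r1, and overlap for the other 7 genes.

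The insulin receptor substrates differed by less than the spread between cultures. Irs1, the main substrate in muscle, read 10.93, 10.68, 10.74 and 11.40 in scrambled arrays 1 to 4 and 11.03, 11.16, 10.79 and 11.10 in DOR siRNA arrays 1 to 4. Its highest and lowest values were both in scrambled arrays, so the groups overlapped fully. The difference was 0.08 ± 0.15 (SE; limma adjusted p = 0.88), with a 95% interval from a 0.845-fold to a 1.33-fold ratio. Irs2, the substrate with the larger role in liver and beta cells, read 6.20, 6.30, 6.49 and 6.01 against 6.24, 6.64, 6.39 and 6.23. It had a single named probe set, close to the array's median, where background is not told from signal. The Irs2 difference was 0.12 ± 0.12 (limma adjusted p = 0.73, ratio 0.906 to 1.31). The gap between Irs2 and Irs1 within an array shifted by 0.04 log2 units (exact permutation p = 0.97, two-sided, and also 0.97 adjusted over the 4 gene pairs compared).

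Grb10 and Grb14, which share their domain plan and their receptor-restraining role, had differences of opposite sign. The brightest of 3 Grb10 probe sets read 7.18, 7.62, 6.56 and 6.16 in scrambled arrays and 6.38, 6.37, 6.01 and 6.03 in DOR siRNA arrays. The scrambled arrays were widely spread, and scrambled 4 lay among the knockdown values. The mean went from 6.88 ± 0.65 to 6.20 ± 0.20 (SD, n = 4 each), a difference of -0.68 ± 0.26 that did not pass limma (adjusted p = 0.22). Each DOR siRNA array was below the scrambled array of its own number, by 0.80, 1.24, 0.55 and 0.12, and with the number as a block the adjusted p of limma was 0.035. It was 0.034 without scrambled 4. Leaving out any of the other 7 arrays gave adjusted p of limma between 0.22 and 0.46, and without scrambled 2 the difference was -0.43. The DOR siRNA mean stood at the median of all values, with no evidence that it exceeds background, which leaves the size of the difference uncertain. The other 2 Grb10 probe sets, at 4.73 and 4.76 over the 8 arrays, differed by -0.10 and -0.08. One of them targets the same sequence record as the brightest.

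The brighter Grb14 probe set read 3.84, 4.15, 3.97 and 4.20 in scrambled arrays and 4.50, 4.27, 4.47 and 4.36 in DOR siRNA arrays. All 4 knockdown values were above all 4 scrambled ones, with 4.20 and 4.27 as the nearest. The difference was 0.36 ± 0.10 (limma adjusted p = 0.072; 0.080 with the block; 0.039 without scrambled 4). Only 17.9% of all probe sets were dimmer, so whether the signal of Grb14 was above background is not known, and the other probe set, at 2.86, differed by 0.03. The gap between Grb10 and Grb14 within an array shifted by -1.04 log2 units. With 4 arrays a group this gave an exact permutation p of 0.057 (0.11 adjusted over the 4 pairs), where 0.0286 is the smallest unadjusted p possible. No adjusted p could go under 0.05 unless most of the 4 pairs sat at that smallest value. The adjusted values of the pairs therefore add little.

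Pik3r1, the regulatory subunit that docks on IRS proteins and stabilises p110, had the largest difference of the set apart from those of Pid1 and Grb10. Its brightest probe set read 8.58, 8.39, 8.77 and 8.98 in scrambled arrays and 9.18, 9.82, 8.98 and 9.09 in DOR siRNA arrays. The groups were separated only in the third decimal, between scrambled 4 and DOR siRNA 3, while DOR siRNA 2 was far above the rest. The mean went from 8.68 ± 0.26 to 9.27 ± 0.38, a difference of 0.59 ± 0.18 (ratio 1.5, 95% interval 1.14 to 1.98) that did not pass limma (adjusted p = 0.11). Without DOR siRNA 2 it was 0.41.

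The next Pik3r1 probe set gave the smallest adjusted p of the 26, 0.059 by limma. It read 7.30, 7.45, 7.66 and 7.79 against 7.96, 8.21, 7.87 and 7.98, so the groups did not overlap, and the difference was 0.46 ± 0.12. That probe set passed with the replicate block (limma adjusted p = 0.045), when dim probe sets were left out of the adjustment (0.045) and without scrambled 4 (0.023). It did not pass with any of the other 7 arrays left out (0.096 to 0.17), nor with cyclic loess, median centring or a trended and robust fit (0.060 to 0.067). The remaining 2 probe sets of Pik3r1 differed by 0.46 ± 0.14 and 0.16 ± 0.12 (limma adjusted p = 0.12 and 0.62), both with overlap between the groups. These 2 and the one before target the same sequence record and do not count as independent readings.

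Pik3ca, the catalytic subunit that p85alpha holds, differed by less than the spread between cultures. Its brightest probe set read 9.00, 8.82, 8.71 and 8.78 in scrambled arrays and 8.89, 9.00, 8.79 and 8.79 in DOR siRNA arrays. The values interleaved, and the difference was 0.04 ± 0.09 (limma adjusted p = 0.89), with a 95% interval from 0.903-fold to 1.18-fold. All 6 probe sets of Pik3ca lay between -0.09 and 0.10. The gap between Pik3r1 and Pik3ca within an array shifted by 0.54 log2 units (exact permutation p = 0.057, 0.11 adjusted over the 4 pairs).

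**Figure D2:**
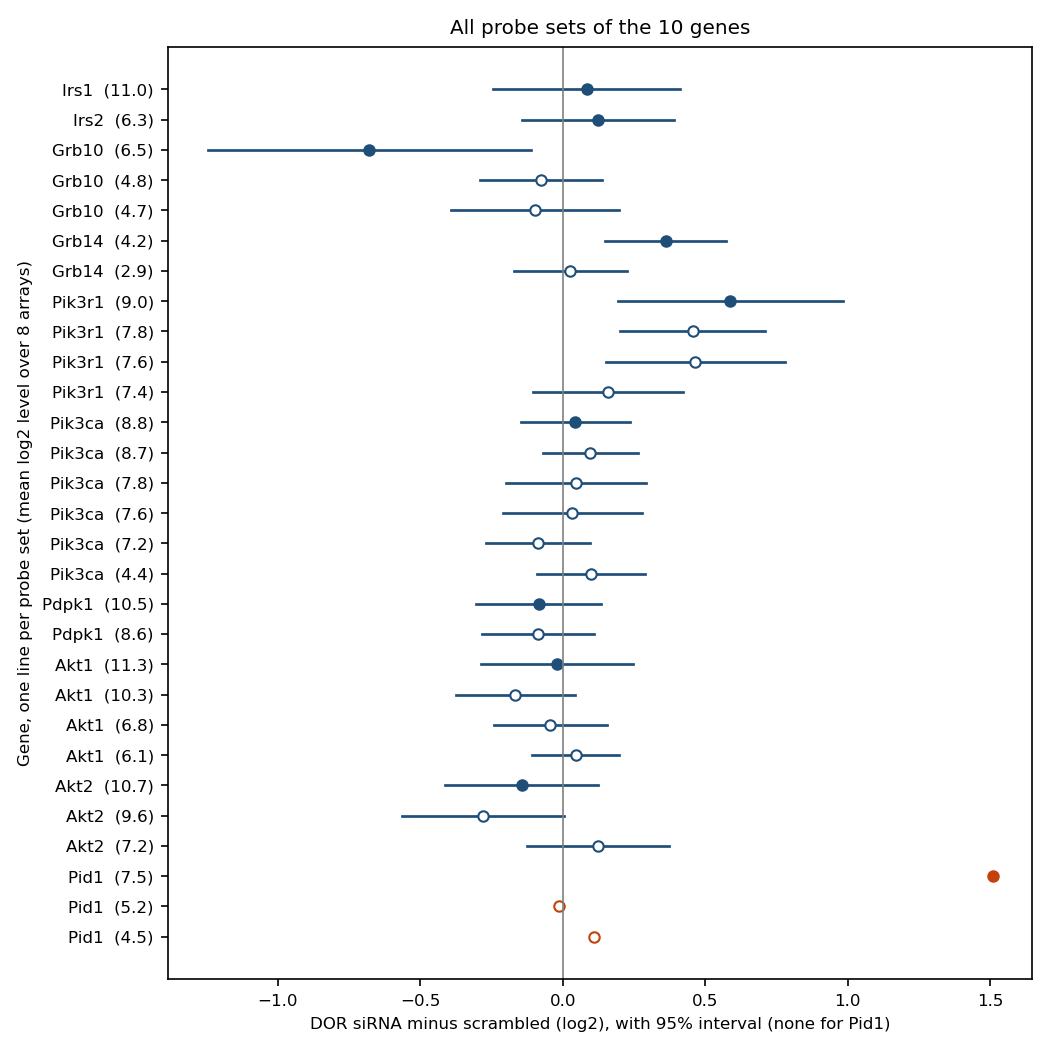
Difference between DOR siRNA and scrambled means (log2) for each of the 29 probe sets, grouped by gene with the mean level in brackets; filled points are each gene's brightest probe set and bars are 95% intervals from limma, not drawn for Pid1. All 4 Pik3r1 probe sets lie to the right of 0 and all 3 of Grb10 to the left, while the Pik3ca, Pdpk1 and Akt1 intervals all include 0.

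The kinases downstream of PI3K showed small differences. Pdpk1, which phosphorylates the activation loop of AKT, read 10.57, 10.31, 10.39 and 10.75 in scrambled arrays and 10.41, 10.53, 10.35 and 10.40 in DOR siRNA arrays. The knockdown values lay within the scrambled range, with a difference of -0.08 ± 0.10 (limma adjusted p = 0.79), and its other probe set gave -0.09. Akt1, the isoform tied to growth, read 11.33, 11.38, 11.51 and 11.10 against 11.21, 11.63, 11.25 and 11.15. The groups overlapped, and the difference was -0.02 ± 0.12 (limma adjusted p = 0.97, ratio 0.821 to 1.19). The second Akt1 probe set differed by -0.17 ± 0.10 (limma adjusted p = 0.47), with each knockdown array below the scrambled array of its number. The remaining Akt1 probe sets differed by -0.04 and 0.05.

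Akt2, the isoform tied to insulin-stimulated glucose uptake, read 10.76, 10.93, 10.90 and 10.43 in scrambled arrays and 10.59, 10.79, 10.66 and 10.40 in DOR siRNA arrays. Each knockdown array was below the scrambled array of its number, by 0.17, 0.14, 0.24 and 0.03, but the groups overlapped and the difference of -0.14 ± 0.12 did not pass limma (adjusted p = 0.67; 0.35 with the block). The second Akt2 probe set differed by -0.28 ± 0.13 and the third by 0.12 ± 0.11 (limma adjusted p = 0.34 and 0.70). The gap between Akt2 and Akt1 within an array shifted by -0.12 log2 units (exact permutation p = 0.17, 0.23 adjusted over the 4 pairs). By the mean over each gene's probe sets that shift was -0.05 (exact permutation p = 0.51).

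Pid1 is described without a test. Its brightest probe set read 6.23, 6.70, 6.92 and 7.02 in scrambled arrays and 8.25, 8.98, 7.95 and 7.71 in DOR siRNA arrays. The groups did not overlap, and the ratio of means was 2.85, from 6.71 ± 0.35 to 8.22 ± 0.55 (SD, n = 4 each). The difference was uneven over the cultures: 2.03 and 2.28 within numbers 1 and 2, and 1.04 and 0.70 within numbers 3 and 4. The other 2 Pid1 probe sets, at 5.17 and 4.48 over the 8 arrays, read -0.01 and 0.11 apart, and the gene's mean over its 3 probe sets was 0.54 higher. Thus the higher signal is that of 1 probe set of 3.

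Brightest probe sets of Pik3r1 and Grb10 shared this unevenness. Within numbers 1 to 4 the Pik3r1 difference was 0.60, 1.43, 0.21 and 0.11, and that of Grb10 was -0.80, -1.24, -0.55 and -0.12. In all 3 genes number 2 was the widest and number 4 the narrowest. The fall of Trp53inp2 did not follow this order, at -2.04, -1.62, -1.94 and -1.74, nor did the mean of the differentiated muscle genes, at -0.57, -0.85, -0.84 and -0.98. The brighter Grb14 probe set did not either, at 0.66, 0.12, 0.50 and 0.16, with number 2 the narrowest. The fibroblast markers did, at 0.44, 0.56, 0.40 and 0.11, and their part in the result was not tested. These within-number values were looked at after the data were seen, and 4 pairs are too few for a correlation.

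**Figure D3:**
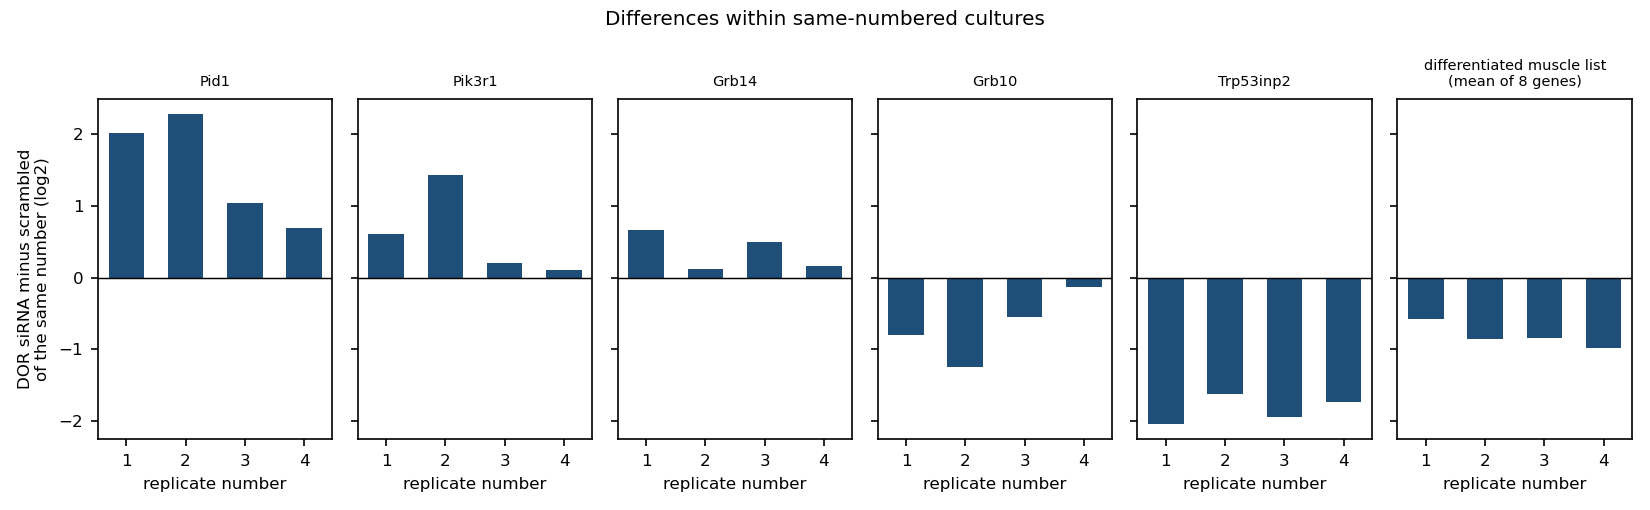
Difference between the DOR siRNA and scrambled arrays of the same replicate number (log2) for the brightest probe sets of Pid1, Pik3r1, Grb14, Grb10 and Trp53inp2 and for the mean of 8 differentiated muscle genes. Pid1, Pik3r1 and Grb10 have their longest bar at number 2 and their shortest at number 4, which Grb14, Trp53inp2 and the muscle list do not.

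The genes whose profiles over the 8 arrays were nearest to that of Pid1 were found among 11267 genes at or above the median level, by the root mean square difference of values centred on each gene's mean. They were the chemokine Cxcl12 (0.13 log2 units), Id3, an inhibitor of myogenic DNA binding (0.19), Ctla2a (0.22), the scramblase Plscr2 (0.23) and the kallikrein Klk1b27 (0.25). The profile of Pid1 itself departed from its mean by 0.85. Cxcl12 read 8.33, 8.86, 9.00 and 9.06 in scrambled arrays and 10.07, 10.76, 10.01 and 9.58 in DOR siRNA arrays. As in Pid1, the lowest value was in scrambled 1 and the highest in DOR siRNA 2. Cxcl12 was picked for its nearness to Pid1 on these same arrays, so this likeness is no separate result.

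Pid1 and Irs1 lie on the same mouse chromosome with 11 protein-coding genes between them in RefSeq, all measured here. None of the 11 passed limma, nor did any reach an unadjusted p under 0.05, and their differences ran from -0.23 (Rhbdd1) to 0.19 (Slc19a3, dim at 4.29). Only 3 of them, Rhbdd1, Mff and Agfg1, lay at or above the median level. These neighbours were looked up after the values of Pid1 were known.

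Beyond the 10 genes, a list of 71 other genes of the pathway was read, of which 61 had a named probe set and 10 are not analysed here. Of the 61, 1 rose, 1 fell and 59 did not pass limma, a called share of 3.28% against 4.56% of all genes by the brightest probe set (3.11% higher and 1.45% lower). Their median difference was 0.01, against 0.02 over all genes. At an unadjusted p under 0.05 there were 9 higher and 9 lower, where 11.5% of all genes were higher and 6.55% lower. The gene that rose was Trib2, a pseudokinase that can bind AKT, which read 5.85, 5.77, 5.84 and 6.18 in scrambled arrays and 6.28, 6.66, 6.42 and 6.42 in DOR siRNA arrays. The groups did not overlap (difference 0.53 ± 0.11, limma adjusted p = 0.028; 0.24 and 0.047 for the mean over its probe sets), although the scrambled values lay at or under the median of the array, where background is not told from signal.

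Phlpp1, a phosphatase that removes the hydrophobic-motif phosphate of AKT, was the gene that fell, from 8.65, 8.55, 8.84 and 8.84 to 8.24, 8.39, 8.40 and 8.31. The groups did not overlap, and the difference was -0.39 ± 0.09 (limma adjusted p = 0.038). Neither call held for every array left out. Leaving out any of scrambled 1, scrambled 2, scrambled 3, DOR siRNA 3 and DOR siRNA 4 ended that of Trib2, with adjusted p of limma between 0.053 and 0.091. Any of scrambled 1, 3 and 4 and of the knockdown arrays 1, 3 and 4 ended that of Phlpp1, with adjusted p of limma between 0.058 and 0.11. With the replicate block 2 of the 61 rose and 3 fell, where 5.1% of all genes rose and 3.16% fell. Those added were Socs3, a feedback inhibitor of cytokine and insulin receptors (0.49 ± 0.14, limma adjusted p = 0.011 with the block and 0.096 without), and 2 that fell. These were Pik3cb, the p110beta catalytic subunit (-0.44 ± 0.12; limma adjusted p = 0.012 and 0.070), and the lipid phosphatase Inppl1 (-0.31 ± 0.08; 0.039 and 0.077). The insulin receptor gene Insr differed by -0.33 ± 0.10 and Lrp1, a receptor known to bind PID1, by 0.59 ± 0.17, and neither passed in either fit (limma adjusted p = 0.11 and 0.084 without the block). Socs3, Pik3cb, Inppl1, Insr and Lrp1 were named after their values were seen. Leaving out scrambled 1 gave 0 calls among the 61, scrambled 4 gave 4, DOR siRNA 2 gave 5, and any of the other 5 arrays gave 1.

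**Figure D4:**
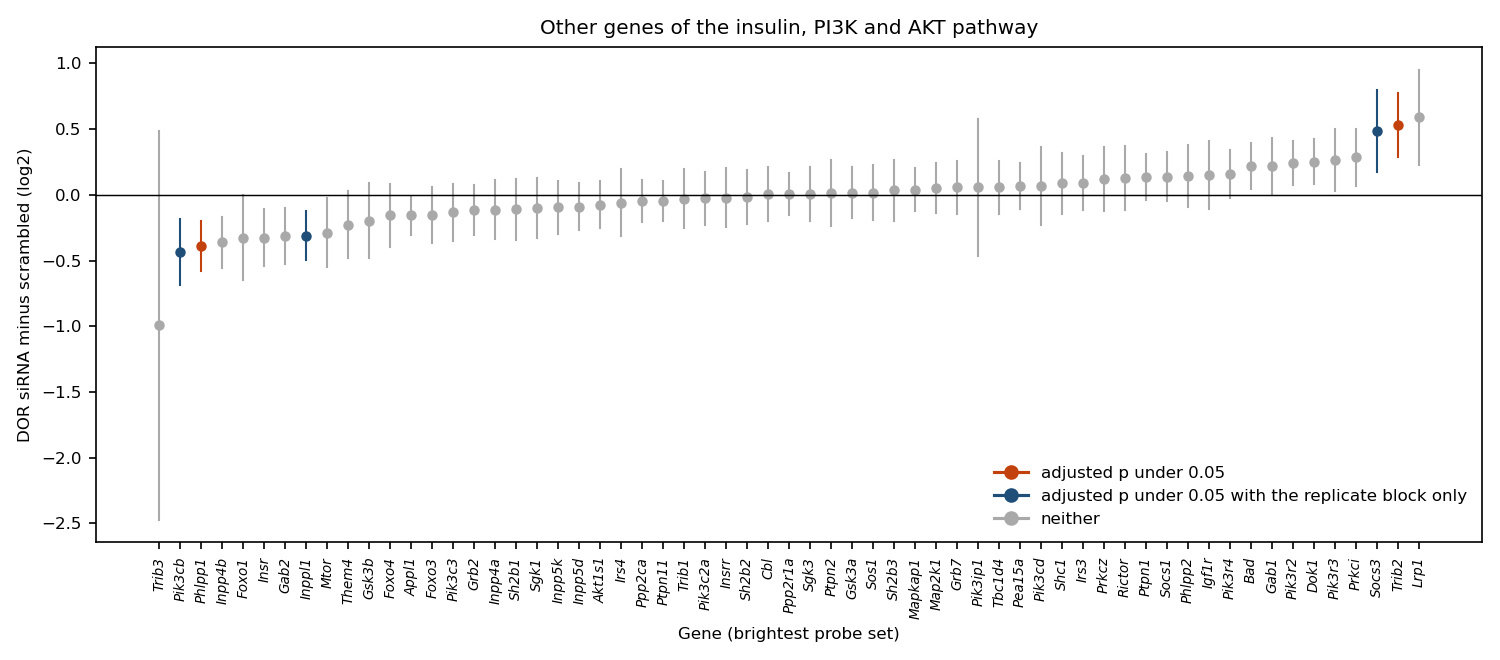
Difference between DOR siRNA and scrambled means (log2) with 95% intervals from limma for the brightest probe set of 61 other pathway genes, in order of size. Trib2 and Phlpp1 (orange) passed at an adjusted p under 0.05, Socs3, Pik3cb and Inppl1 (blue) passed with the replicate block only, and the other 56 (grey) passed in neither fit.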

How the data were processed

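The deposited values are log2 expression of each probe set. The submitters' processing notes name RMA as the method the authors used. RMA removes background, aligns the arrays' distributions by quantile normalization and summarises probes, so a shift of all transcripts would not show, and dim differences are compressed. Its version is not given in the sources used here. Precision is limited by 4 arrays a group. Leaving out 64 control probe sets, 45037 were fitted with limma 3.58.1 (R 4.3.3) on the group alone, two-sided, with Benjamini-Hochberg adjustment over all and a threshold of 0.05. A gene was represented by its brightest probe set. In 10 simulated runs of 45037 probe sets, 200 were changed and the noise was drawn independently for each array. There 43.0% of changes of 0.5 log2 units and 92.0% of changes of 1 were recovered. The real data had 1452 calls, and arrays of the same number deviated together, so these rates need not hold for them.

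Arrays with the same replicate number deviated from their groups together (correlations of 0.14 to 0.47 over all probe sets in the 4 pairs). The labels' numbers were therefore treated as pairs in an alternative fit, and values with that block are given where they change a call. The main fit and the permutation tests of the gene pairs did not use the numbers. The members, lists and pairs were chosen with earlier results of these data known. Named genes were all members, Trp53inp2, called genes of the pathway list and the 5 profiles nearest to Pid1; others are marked. Alternatives were the block, a variance trend, other scaling, a level filter, means over probe sets and leaving out each array.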

Additional observations from a re-analysis of the deposited data

Results flagged for a closer look

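Of 72 groups of 4 arrays examined, 1 held an array far from the other 3, where chance flags about 1 in 20. For the difference of log2 values between Pik3r1 and Pik3ca within an array, DOR siRNA 2 stood at 0.82, while the other 3 DOR siRNA arrays lay between 0.19 and 0.30. Without that array the shift of this gap was 0.41 in place of 0.54.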

How the results depend on the processing

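Over all probe sets 1452 passed, 2827 with the replicate block and 608 to 2310 with 1 array left out. Of the 9 genes other than Pid1, 0 passed by the brightest probe set, 1 with the block (Grb10) and 0 to 2 with 1 array left out, the 2 being Grb10 and Grb14 without scrambled 4. By exact permutation 2 had an unadjusted p under 0.05, both at 0.0286, the smallest value possible with 4 arrays a group. After adjustment over the 9, 0 passed (smallest 0.13). With only 2 genes at that floor the adjusted p could not go under 0.05, so the 0 adds nothing to the result by limma. Of the 61 other pathway genes 2 passed, 5 with the block, 5 by the mean over probe sets and 0 to 5 with 1 array left out, where the cause was not tested. Among the members, Trib2 and Phlpp1, the block changed 2 calls. They were those of the brightest Grb10 probe set (limma adjusted p from 0.22 to 0.035) and the second Pik3r1 probe set (from 0.059 to 0.045). Grb14 has no value where dim probe sets were left out.

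With 1 array left out, the shifts of the gene pairs ran from -0.19 to 0.19 (Irs2 and Irs1), -1.33 to -0.83 (Grb10 and Grb14), 0.41 to 0.66 (Pik3r1 and Pik3ca) and -0.16 to -0.08 (Akt2 and Akt1). By the mean over each gene's probe sets they were 0.04, -0.48, 0.38 and -0.05 in that order, all but the first outside these ranges. The differences of Grb10, Grb14 and Pik3r1 were then -0.28, 0.19 and 0.42 (limma adjusted p = 0.28, 0.14 and 0.056). The sign of small differences turned for 7 probe sets of the 9 genes, and for 1 of Pid1 (-0.056 to 0.048), when 1 array was left out. The 7 were Irs1 (-0.0024 to 0.24), Akt1 (-0.13 to 0.041 and -0.087 to 0.0042), Pik3ca (-0.038 to 0.11 and -0.068 to 0.093), Grb10 (-0.21 to 0.0067) and Grb14 (-0.028 to 0.072). The brightest Pid1 probe set ran from 1.26 to 1.68. What can be called is limited by having 4 arrays a group. Levels under 6.18, those of 6 of the 26 probe sets and of 2 of the 3 of Pid1, may be background.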
